A study of Mus musculus with 9 samples.

Results

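Zfp-named genes, the mouse counterparts of the human ZNF genes, were followed through the first hour of lipopolysaccharide (LPS) in IMM cells, which are immortalized macrophages of the mouse. Members were the genes whose symbol is Zfp followed by digits only, without the RNA-binding gene Zfp36, and whose mean over all 9 libraries was at least 3 CPM (counts relative to the plain total of the library). This rule gave 252 members of 373 Zfp-named genes and of 55450 gene identifiers in the table. Of the other 121 Zfp-named genes, 40 had 0 counts in every library. The family was chosen by its measured levels, because it lay slightly lower at 30 min than at 0 min in these libraries, so every value of that contrast is given below as a description only.

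All cells carried the genotype given as WT. The groups were cells at 0 min (no LPS, the control) and cells at 30 min and at 60 min of 100 ng/mL LPS, a bacterial outer-membrane glycolipid that macrophages sense through the receptor Tlr4, with 3 libraries of ribosomal-RNA-depleted total RNA each. Cells without LPS at 30 or 60 min were not analysed here, so LPS, handling and time cannot be told apart. The design text calls the libraries of a time biological replicates; nothing used here says how the cultures were kept apart, and the p-values measure the spread between these libraries. Libraries held 26867428 to 30402308 counts. The macrophage genes Csf1r, Cd68, Adgre1, Itgam and Lyz2 were each at 125 CPM or more in every library. Of 10 genes that mark T cells, B cells, fibroblasts, epithelium or endothelium, 4 were at 0 in every library and none passed 1.01 CPM; their sum ran from 0.772 to 1.079 CPM at 0 min, from 0.665 to 1.569 CPM at 30 min and from 1.085 to 1.251 CPM at 60 min.

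Most Zfp genes encode C2H2 zinc finger proteins, in which rows of small zinc-binding loops read DNA sequence. In a large subset the fingers follow a KRAB domain, a short stretch that binds the corepressor Trim28 (KAP1). Trim28 brings the histone H3 lysine 9 methyltransferase Setdb1, heterochromatin proteins and the NuRD deacetylase complex, and this machinery is best known for silencing retrotransposons. Other Zfp proteins carry no KRAB domain and act as activators, as parts of other complexes, or on RNA.

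The protein sequences bore out the zinc finger part of the family name for nearly all members and the KRAB repressor part for a majority. Of 252 members 250 were protein-coding, and the transcribed pseudogenes Zfp939 and Zfp783 were not classified. At least 1 C2H2 pattern (2 cysteines, a loop of 12 residues and 2 histidines) was found in 246 members and at least 7 in 193. It was found in none of the translations of Zfp839, Zfp330, Zfp503 and Zfp703. A profile of the KRAB A-box, the part of the domain that contacts Trim28, matched 150 members, here called KRAB members, and did not match 100. No match says only that the profile found no such box; a diverged box can be missed. A stricter core pattern matched 94 members. KRAB members held a median of 12 finger patterns and the others 7, with a maximum of 36 in Zfp142.

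Members lay on 20 chromosomes, with 63 on chromosome 7, 33 on chromosome 17 and 21 on chromosome 13. Of the 150 KRAB members 125 lay within 500 kb of another member, against 38 of the 100 others. The largest run, with no gap over 500 kb, was 18 KRAB members on chromosome 17 (GRCm38, chr17:21008903-23564238). A run of 12 KRAB members lay at chr13:67121660-67792512, and 12 members, 9 of them KRAB, lay at chr7:29768552-30169750. In 59 members at least 5% of the 50-base stretches of the transcripts also occurred in another gene, and in 9 members at least 50% did. The other gene could be any gene, inside or outside these runs. The median share over the members was 0.522%. The estimated counts share such reads among the genes that hold them. Exons of 25 members overlapped an exon of another gene on the same strand and those of 61 on the other strand.

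KRAB members were expressed at lower levels than the others. Their median level per kilobase of merged exons was 2.47 CPM per kb, against 5.88 CPM per kb for members without a KRAB match; no test was made of this difference. None of the 10 members of highest level per kilobase matched the KRAB profile. Zfp106, an RNA-binding protein, led with 105 CPM per kb. It was followed at a distance by Zfp207, a kinetochore and splicing factor, with 44.1 CPM per kb, and by Zfp91, a ubiquitin ligase, with 24.4 CPM per kb. Zfp706 (22.4), Zfp335 (21.4), Zfp609 (20.4), Zfp263 (20.4), Zfp710 (18.1), Zfp598 (17.1) and Zfp146 (16.2 CPM per kb) completed the 10. The highest KRAB member, Zfp655, reached 13.5 CPM per kb. Zfp106 alone held 1130, 1130 and 1090 CPM of TMM-scaled totals (library totals adjusted by edgeR for composition, used for all CPM from here on unless plain totals are named) at 0 min. It held 1100, 1100 and 1050 CPM at 30 min and 1090, 1090 and 1110 CPM at 60 min, so that the ranges of 0 and 60 min overlapped.

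**Figure D1:**
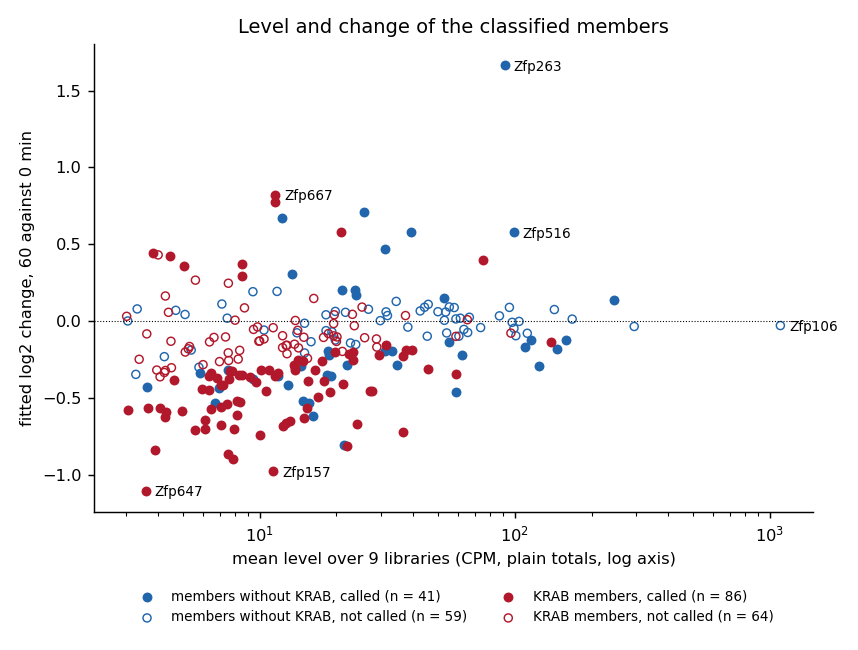
Mean level of each classified member over the 9 libraries (x, CPM of plain totals, log axis) against its fitted log2 change from 0 to 60 min (y). Filled points passed the test (86 KRAB members in red, 41 others in blue) and open points did not; filled red points lie mostly below 0, and Zfp263 lies alone at the top with a log2 change of 1.66.

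As a family, members lay lower at 60 min than at 0 min, and 77 of the 106 that fell were KRAB members. Of 252 members 106 fell and 21 rose (edgeR's quasi-likelihood test, adjusted p under 0.05 over 14246 genes). The share that fell was 42.1%, where 11.7% of all genes tested fell; 8.33% of members rose, where 13.3% of all genes rose. Of all tested genes with a mean of at least 3 CPM, 12.7% fell and 15.2% rose. The median log2 change was -0.16 over the members and 0.00 over all genes tested. In 123 members the 3 libraries at 60 min all lay below the 3 at 0 min, and in 31 all lay above, where 18.7% and 19.6% of all genes did so. In bulk RNA, fewer cells of a kind and less RNA per cell cannot be told apart. Both comparisons with 0 min use the same 0 min libraries, so this one is not independent of the contrast that picked the family.

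The falls were small. The median log2 change of the members that fell was -0.385, where that of all genes that fell was -0.35. By at least 1.5-fold, 23 members fell and 5 rose. By at least 2-fold, only Zfp647 fell and only Zfp263 rose. The share of all genes called at these folds is not given here. Called or not, 13.3% of KRAB members had a fitted log2 change of -0.60 or lower. So did 2% of members without a KRAB match and 1.72% of all tested genes with at least 3 CPM. At or below 0.60 lay 98.7%, 97% and 95.9%, in the same order. Scaling by total counts alone, in place of TMM, gave 139 lower and 14 higher members at 60 min, while all genes then split into 3048 lower and 1313 higher against 1671 and 1891 with TMM; the median of all genes moved by -0.068 under this scaling. Leaving out replicate 2 at 60 min left 82 lower and 13 higher members. All genes then split into 1298 lower and 1528 higher, also fewer than with all 9 libraries.

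Among the 150 KRAB members 77 fell (51.3%) and 9 rose (6.00%), with a median log2 change of -0.25. Among the 100 members without a KRAB match 29 fell (29.0%) and 12 rose (12%), with a median of -0.04. The KRAB members made up 21 of the 23 that fell by at least 1.5-fold. With the stricter core pattern, 48 of 94 members fell and 7 rose, against 58 and 14 of the 156 others. The difference between the groups was not tested, since the members of a group are not replicates.

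Level moved with this split, as did the number of fingers. KRAB members of 3 to under 10 CPM fell in 36 of 72 cases, those of 10 to under 30 CPM in 33 of 65, and those of at least 30 CPM in 8 of 13. Over all genes tested in the same level ranges 14.7%, 14.9% and 10.8% fell. Members without a KRAB match fell in 6 of 17, 12 of 34 and 11 of 49 cases. The median log2 change in these ranges shrank with level, from -0.327 to -0.21 and -0.156 for KRAB members. For members without a KRAB match it was -0.229, -0.097 and -0.000427. Over all genes tested it was -0.0275, -0.00735 and 0.0149. With at least 7 finger patterns, 21 of 54 members without a KRAB match fell and 6 rose; with fewer, 8 of 46 fell and 6 rose. Across the classified members Spearman's rho with the log2 change at 60 min was -0.323 for the number of finger patterns, 0.335 for the mean level and 0.00 for the length of the 3' untranslated region. These correlations run over genes that share the same libraries, and no p is given. Among the 193 members with under 5% shared sequence 82 fell and 15 rose, and among the 173 with no overlapping exon 78 fell and 16 rose.

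**Figure D2:**
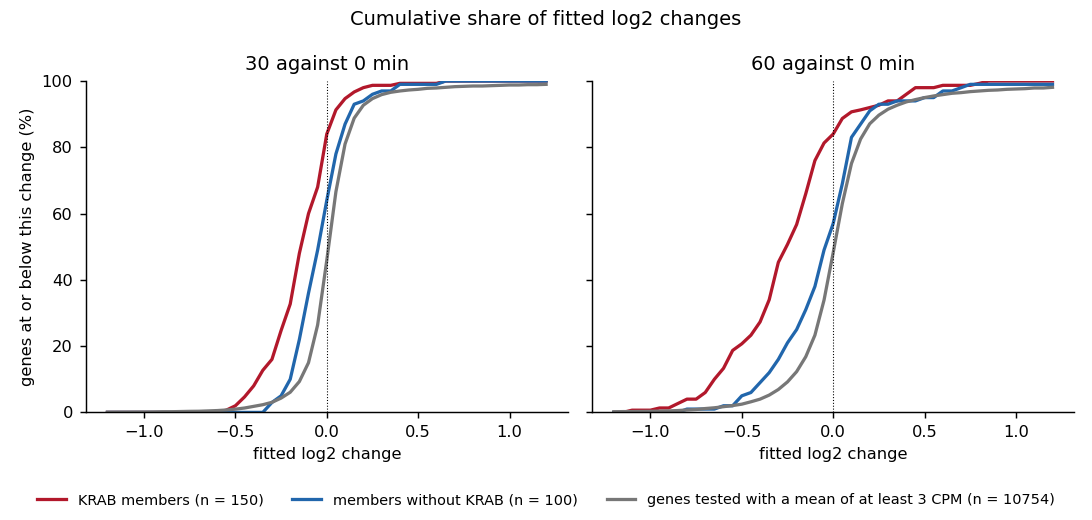
Share of genes (y, percent) whose fitted log2 change was at or below the value on x, for 30 against 0 min (left) and 60 against 0 min (right). At a change of 0 on the right, the curve of the 150 KRAB members stands at 84.0%, that of the 100 members without a KRAB match at 57.0% and that of all tested genes with at least 3 CPM at 48.2%.

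The medians of the libraries are given here with those at 30 min as a description only, since values of that time picked the family. Relative to the mean of the 0 min libraries, the median log2 ratio of the KRAB members was -0.012, 0.013 and 0.007 at 0 min. It was -0.135, -0.115 and -0.119 at 30 min and -0.216, -0.237 and -0.28 at 60 min. The medians at 60 min lay below those at 0 min and those at 30 min. Members without a KRAB match had medians of -0.059, -0.057 and -0.048 at 30 min and of -0.045, -0.04 and -0.038 at 60 min, with 0.003, 0.008 and -0.016 at 0 min. Over all genes tested the 9 medians lay between 0.001 and 0.01.

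**Figure D3:**
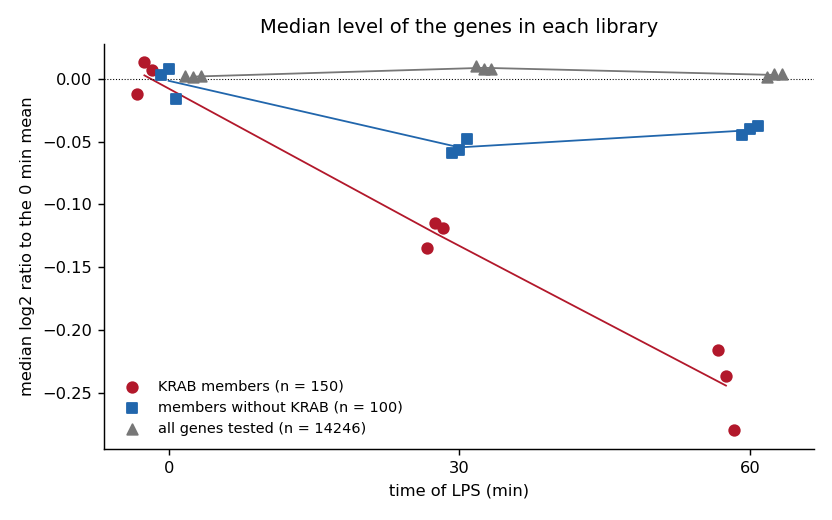
Median log2 ratio to the mean of the 0 min libraries (y) in each of the 9 libraries by time of LPS (x, min); points are libraries, placed side by side within a time, and lines join the means of a time. KRAB members (red) reach -0.216 to -0.28 at 60 min, members without a KRAB match (blue) lie between -0.059 and 0.008, and all genes tested (grey) lie at 0.001 to 0.01.

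Summed over genes, KRAB members held 2488 ± 32.7 CPM (SD, n = 3) at 0 min, 2299 ± 12.8 CPM at 30 min and 2171 ± 40.5 CPM at 60 min, a drop of 12.7% over the hour. Members without a KRAB match held 5736 ± 87.9, 5621 ± 71.3 and 5750 ± 27.1 CPM. Their sum includes the rise of Zfp263, given below, while 29 of these members fell and 12 rose at 60 against 0 min. The sum without Zfp263 was not taken. The sum over all 252 members went from 8250 ± 97.0 to 7945 ± 58.2 and 7946 ± 39.4 CPM. The sum of the 5 macrophage markers ran from 1632 to 1718 CPM at 0 min and from 1745 to 1855 CPM at 60 min. These sums depended on the scaling. With plain library totals the KRAB members dropped by 16.8% over the hour, members without a KRAB match by 4.39%, where TMM gave a change of 0.245%, and all members by 8.14%, where TMM gave a drop of 3.68%. The macrophage markers then ran from 1659 to 1743 CPM at 0 min and from 1715 to 1800 CPM at 60 min, and these ranges overlapped.

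**Figure D4:**
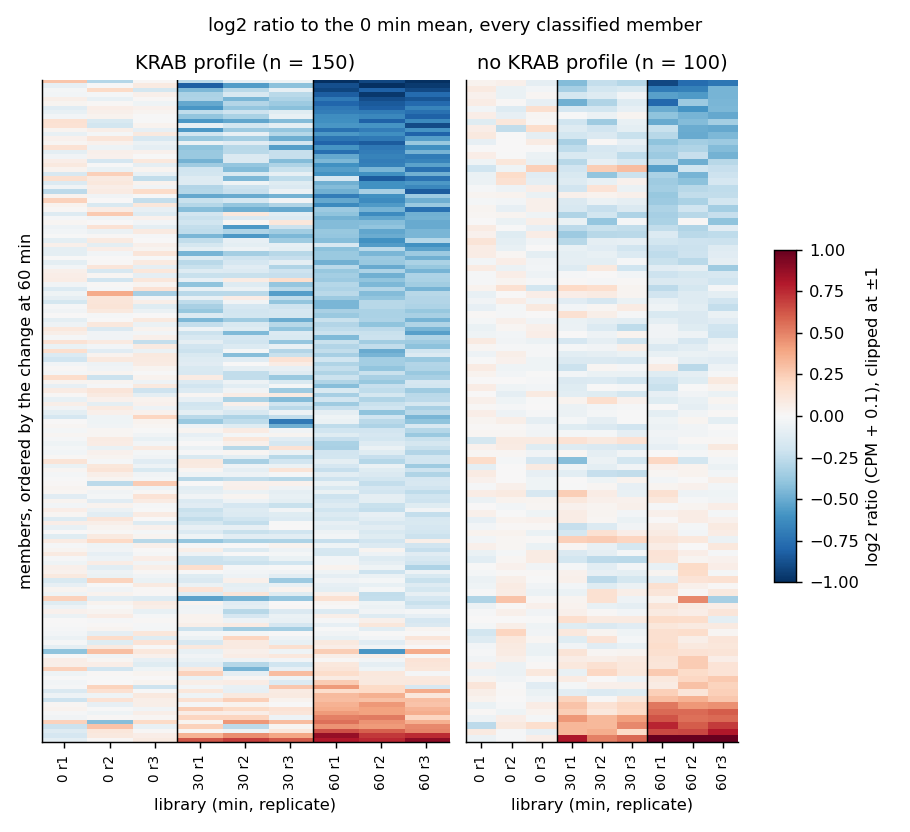
Level of every classified member (rows, ordered by the change at 60 min) in the 9 libraries (columns, min and replicate), as log2 ratio to its 0 min mean with 0.1 CPM added, blue lower and red higher, clipped at 1. Blue fills most rows of the 150 KRAB members at 60 min, and the panel of the 100 members without a KRAB match holds paler rows.

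The 10 members with the largest falls at 60 min were Zfp647, Zfp157, Zfp39, Zfp324, Zfp54, Zfp7, Zfp553, Zfp90, Zfp120 and Zfp763, with fitted log2 changes from -1.10 to -0.70. All matched the KRAB profile except Zfp553. In each of them the 60 min libraries all lay below the 0 min libraries and below the 30 min libraries. These 10 were picked by their change at 60 against 0 min, so this gives no further support. Of all genes tested 18.7% lay lower without overlap at 60 against 0 min. The bases before the start site of 4 of the members that moved most are shown here, so that a gene that rose can be set beside genes that fell. They are the 250 bases before the RefSeq start (GRCm38.p6), 5′ to 3′ on the gene's strand, and capitals mark matches to the motifs searched below: chr16:3743849-3744098 (plus strand) for Zfp263, chr5:138441226-138441475 (plus) for Zfp157, chr11:58904226-58904475 (minus) for Zfp39 and chr7:12965588-12965837 (plus) for Zfp324.
Zfp263: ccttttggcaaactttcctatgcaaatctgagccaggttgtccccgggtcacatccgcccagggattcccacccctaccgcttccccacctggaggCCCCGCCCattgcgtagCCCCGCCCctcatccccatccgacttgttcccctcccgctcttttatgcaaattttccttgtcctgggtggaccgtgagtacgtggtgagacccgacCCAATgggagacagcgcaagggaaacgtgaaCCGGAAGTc
Zfp157: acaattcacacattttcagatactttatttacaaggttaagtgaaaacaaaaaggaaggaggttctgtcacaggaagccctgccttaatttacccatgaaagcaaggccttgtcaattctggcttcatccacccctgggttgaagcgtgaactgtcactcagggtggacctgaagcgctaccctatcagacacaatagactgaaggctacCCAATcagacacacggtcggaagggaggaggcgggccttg
Zfp39: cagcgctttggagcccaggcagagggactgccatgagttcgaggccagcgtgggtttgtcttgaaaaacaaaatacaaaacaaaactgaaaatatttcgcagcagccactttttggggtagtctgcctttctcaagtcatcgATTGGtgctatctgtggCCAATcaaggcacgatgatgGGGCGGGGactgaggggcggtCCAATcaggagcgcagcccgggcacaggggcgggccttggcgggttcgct
Zfp324: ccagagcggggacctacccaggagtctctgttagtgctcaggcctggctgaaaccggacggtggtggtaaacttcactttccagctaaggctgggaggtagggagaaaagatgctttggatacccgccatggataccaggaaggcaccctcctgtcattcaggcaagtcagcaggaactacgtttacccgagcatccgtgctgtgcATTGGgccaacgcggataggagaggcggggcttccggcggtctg
Zfp263 rose and the other 3 fell. In these bases Zfp263 held CCAAT, CCGGAAGT and the GC box, Zfp39 held CCAAT and the GC box, and Zfp157 and Zfp324 held CCAAT alone of the motifs searched.

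Motifs were searched on both strands in the RefSeq window from 250 bases before to 50 after a start, which was found for 210 members and for 27025 genes in all; a gene counted when any of its windows held the motif. The ETS site CCGGAAGT was found in 13.3% of members and 4.31% of all genes, the NRF1 site GCATGCGC in 7.14% and 3.05%, and the site ACTACAATT, the start of the sequence bound by the member Zfp143 itself, in 2.86% and 0.448%. The YY1 site AAGATGGCG was found in 3.81% and 1.64%, the CRE TGACGTCA in 4.29% and 2.03%, and CCAAT in 52.9% and 41.1%. The AP-1 site TGANTCA was found in 5.24% of members and 8.97% of all genes, and the NF-kB site in 11% and 9.55%. The GC box GGGCGGGG was found in 16.8% of KRAB members and 40.3% of members without a KRAB match, against 19.6% of all genes. The median GC content of the window was 53.3% for KRAB members, 62.6% for members without a KRAB match and 52.8% for all genes. Of the members that fell at 60 min 14.1% held the ETS site (13 of 92), of those that rose 23.5% did (4 of 17), and of those that did not pass the test 10.9% did (11 of 101); no test was made of these shares. The 27025 genes were not limited to genes expressed in these cells, while members had a mean of at least 3 CPM. The shares are not matched for level, and what sets members apart from all genes in them was not tested. A site that overlaps another can count for both, and a match is a run of letters only.

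Zfp647 (chr15:76910371-76925448) showed the largest fall. It was at 5.39, 3.62 and 4.48 CPM at 0 min, at 3.67, 4.20 and 4.30 CPM at 30 min and at 2.10, 2.31 and 1.87 CPM at 60 min. The 0 and 30 min libraries overlapped, and those at 60 min lay below both. The fitted log2 change at 60 against 0 min was -1.10 ± 0.159 (SE; edgeR adjusted p 0.000131).

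Zfp157 (chr5:138441468-138460694) went from 14.6, 15.4 and 16.5 CPM at 0 min to 8.77, 10.5 and 11.6 CPM at 30 min and 8.35, 7.49 and 7.91 CPM at 60 min. The 3 times did not overlap. Its log2 change over the hour was -0.97 ± 0.098 (SE; edgeR adjusted p 3.68e-06).

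Zfp39 (chr11:58888153-58904225) read 9.75, 11.3 and 8.76 CPM at 0 min, 7.23, 8.19 and 9.35 CPM at 30 min and 5.19, 5.60 and 5.23 CPM at 60 min. As for Zfp647, the first 2 times overlapped and the last lay lower. Zfp324 (chr7:12965838-12974236) read 9.17, 9.21 and 9.70 CPM, then 7.48, 8.36 and 7.73 CPM, then 5.23, 4.75 and 5.46 CPM. Here each time lay below the one before. The log2 changes at 60 against 0 min were -0.90 for Zfp39 and -0.86 for Zfp324. An exon of Zfp39 overlaps a gene on the other strand.

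Zfp120 (chr2:150114406-150136708), the best expressed of these 10 per kilobase, at 8.31 CPM per kb, was at 41.7, 45.4 and 44.7 CPM at 0 min, at 36.9, 38.0 and 40.4 CPM at 30 min and at 27.1, 27.0 and 26.1 CPM at 60 min. Its log2 change was -0.72 ± 0.050 (SE; edgeR adjusted p 7.02e-08). Zfp553 (chr7:127233061-127238179), with 12 finger patterns and no KRAB match, went from 27.7, 28.0 and 25.4 CPM at 0 min to 14.3, 15.8 and 16.3 CPM at 60 min. Its log2 change was -0.80, and an exon overlaps a gene on the other strand.

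Zfp7 and Zfp90 fell from means of 28.2 to 16.1 CPM and of 12.9 to 7.72 CPM, Zfp54 from 4.99 to 2.79 CPM and Zfp763 from 6.80 to 4.18 CPM. Zfp7 shares 14.1% of its 50-base stretches with other genes and overlaps one on its own strand, and Zfp54 and Zfp90 overlap one on the other strand. Over the chromosomes with at least 10 members, the share that fell at 60 min ran from 23.1% on chromosome 9 (3 of 13) to 73.3% on chromosome 2 (11 of 15), and of the 8 members on chromosome 18 none fell and 1 rose. These chromosomes were named after their values were seen.

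Members fell both within and outside runs of neighbours. Of the 165 members within 500 kb of another 44.8% fell at 60 against 0 min, with a median log2 change of -0.205. Of the 87 farther away 36.8% fell, with a median of -0.0758, where 11.7% of all genes tested fell. The difference was not tested. Of the 165 members 125 were KRAB members, so nearness and the KRAB match were not told apart here. Of the 11 runs with at least 5 members, 94 members in all, each had a negative median log2 change at 60 against 0 min. Most members of these runs were KRAB members. Of all 150 KRAB members, in runs or not, 84.0% had a negative change, where 49.8% of all genes tested did. In the run of 18 KRAB members on chromosome 17 the median was -0.19, 8 fell and 0 rose. In the run of 12 KRAB members on chromosome 13 the median was -0.25, 5 fell and 0 rose, and in the 12 members at chr7:29768552-30169750 the median was -0.31, 9 fell and 0 rose. The 5 KRAB members at chr8:69209038-69791178 had a median of -0.03 with calls in both directions: Zfp869 and Zfp868 rose, Zfp930 fell, and Zfp963 and Zfp866 did not pass the test.

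The members that rose at 60 min were led by Zfp263 (chr16:3744093-3750790), a protein with 9 finger patterns. It did not match the KRAB profile, which can miss a diverged box. It was at 46.4, 47.8 and 50.6 CPM at 0 min, at 84.6, 68.3 and 71.8 CPM at 30 min and at 163, 147 and 149 CPM at 60 min. Each time lay above the one before, and replicate 1 was the highest of its time at both 30 and 60 min. The log2 change over the hour was 1.66 ± 0.068 (SE; edgeR adjusted p 2.85e-10), a 3.17-fold rise.

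Zfp667 (chr7:6286579-6307883), a KRAB member, was at 7.41, 8.01 and 8.47 CPM at 0 min, at 12.3, 12.9 and 12.2 CPM at 30 min and at 13.9, 13.5 and 14.9 CPM at 60 min. Its groups did not overlap, and its log2 change over the hour was 0.82 ± 0.076 (SE; edgeR adjusted p 1.58e-06). Zfp869, also a KRAB member, went from a mean of 8.63 to 14.8 CPM with a log2 change of 0.77. It shares 9.34% of its 50-base stretches with other genes.

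Zfp703 and Zfp503, related transcriptional repressors of the NET family whose translations held no C2H2 pattern, both rose. Zfp703 (chr8:26977325-26981461) was at 21.3, 19.9 and 18.9 CPM at 0 min, at 25.2, 25.7 and 22.9 CPM at 30 min and at 31.6, 31.9 and 34.9 CPM at 60 min. Zfp503 (chr14:21983959-21989601) was at 7.77, 10.0 and 10.5 CPM, then 11.8, 11.7 and 13.1 CPM, then 15.9, 14.3 and 15.2 CPM. In both genes each time lay above the one before, and the log2 changes over the hour were 0.71 and 0.67.

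Zfp367 rose from 31 ± 1.29 to 46.5 ± 1.33 CPM (SD, n = 3) and Zfp516, which works with the corepressor CoREST, from 82.3 ± 2.29 to 123 ± 1.98 CPM. The KRAB member Zfp719 stood at 17.8 ± 1.51 CPM at 0 min, 18.2 ± 0.967 CPM at 30 min and 26.7 ± 1.38 CPM at 60 min. Zfp275 rose with a log2 change of 0.47. Zfp433 (log2 change 0.45, edgeR adjusted p 0.0437) shares 84.3% of its 50-base stretches with other genes and lost its call in 9 of 16 other fits, so its value is uncertain.

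**Figure D5:**
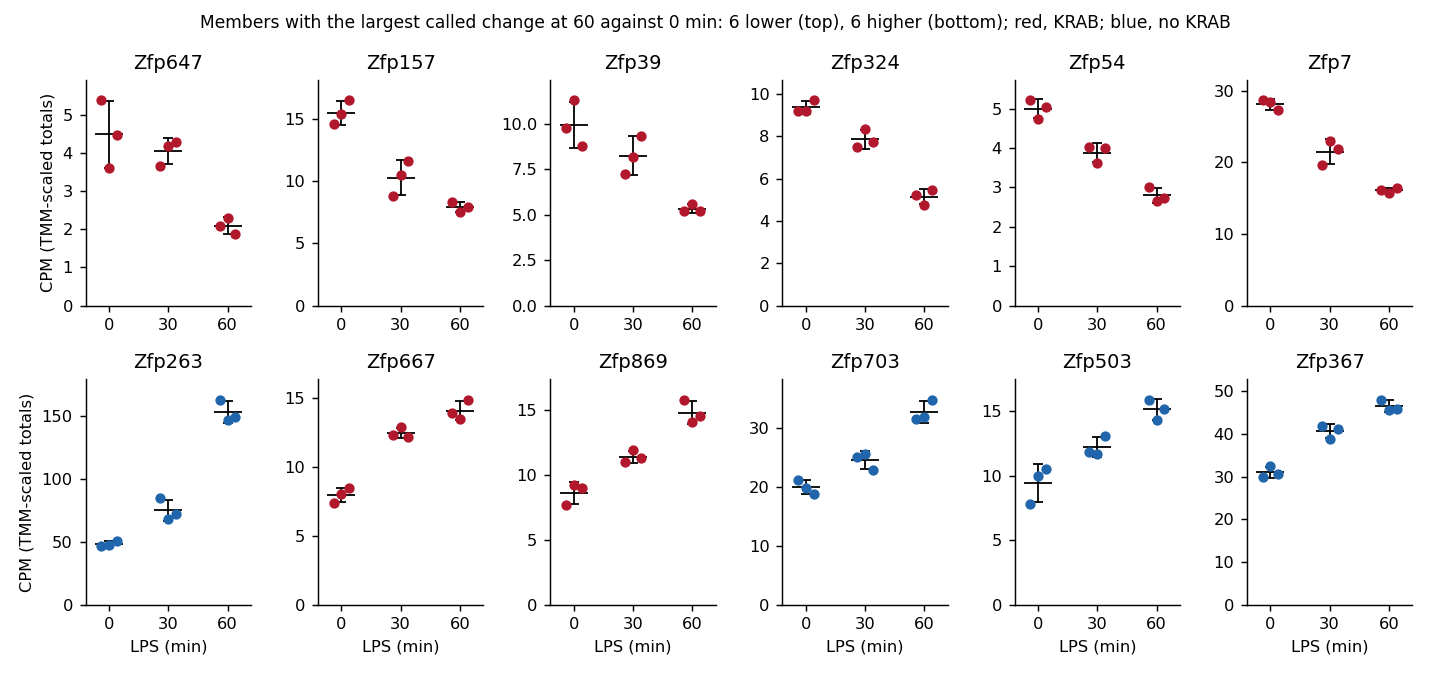
CPM of TMM-scaled totals (y, from 0) in each library by time of LPS (x, min) for the 6 members with the largest called fall (top) and the 6 with the largest called rise (bottom) at 60 against 0 min; red points are KRAB members, blue points others, and bars give the mean and SD of 3 libraries. Zfp263 goes from a mean of 48.3 to 153 CPM, and Zfp157 from 15.5 to 7.92 CPM.

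At 30 against 0 min, the contrast that picked the family, 29 members lay lower and 9 higher by the same call rule, where 3.35% and 4.84% of all genes tested did so; nothing is read from these counts. The median log2 change was -0.10 over the members, -0.14 over the KRAB members and -0.05 over the others. The largest negative values were those of Zfp157 (-0.59), Zfp931 (-0.52), Zfp69 (-0.51), Zfp930 (-0.50), Zfp689 (-0.48) and Zfp606 (-0.48). The largest positive ones were those of Zfp667 (0.65), Zfp263 (0.63), Zfp869 (0.40), Zfp367 (0.39), Zfp503 (0.37) and Zfp703 (0.30). The call of Zfp503 at 30 min was lost in 10 of 16 other fits. Zfp930 read 33.2, 33.5 and 33 CPM at 0 min, 24.2, 22.3 and 24.3 CPM at 30 min and 25.4, 23.5 and 24.2 CPM at 60 min. For Zfp931, 23.3% of the 50-base stretches were shared with other genes.

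From 30 to 60 min, a comparison that shares the 30 min libraries with that contrast, 41 members fell and 19 rose (edgeR's quasi-likelihood test, adjusted p under 0.05). That is 16.3% and 7.54% of members, where 7.65% and 8.87% of all genes tested fell and rose. Of the KRAB members 30 fell and 6 rose, with a median log2 change of -0.11; of the others 11 fell and 13 rose, with a median of 0.00. Total counts as the only scaling gave 58 lower and 15 higher members. All genes then split into 1672 lower and 1005 higher, against 1090 and 1263 with TMM. Without replicate 2 at 30 min, 11 members rose, while 921 of all genes rose, against 1263 with all libraries.

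The largest falls from 30 to 60 min were those of Zfp647 (-0.95), Zfp39 (-0.63), Zfp324 (-0.61), Zfp442 (-0.57), Zfp74 (-0.54) and Zfp120 (-0.52 on the log2 scale). Zfp442, for which 32.1% of the 50-base stretches are shared with other genes, had means of 9.33, 8.55 and 5.75 CPM at 0, 30 and 60 min, and Zfp74 had 14.8, 13.6 and 9.39 CPM. In both genes the 60 min libraries lay below all others. The largest rises were those of Zfp263 (1.03), Zfp719 (0.56), Zfp703 (0.42), Zfp516 (0.40), Zfp869 (0.38) and Zfp959 (0.35). The call of Zfp959, with 17.4% shared sequence, was lost in 6 of 16 other fits. Zfp217, a corepressor that works with CoREST and has no KRAB match, was at 68.0, 61.2 and 65.8 CPM at 0 min, 64.8, 62.4 and 66.1 CPM at 30 min and 49.0, 47.1 and 45.5 CPM at 60 min. The first 2 times overlapped, and its log2 change from 30 to 60 min was -0.45 (edgeR adjusted p 1.08e-05).

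Of 7 members with known DNA-binding roles outside KRAB silencing, 2 fell and 1 rose at 60 against 0 min, where 11.7% of all genes tested fell and 13.3% rose. Zfp143, an activator of small nuclear RNA and protein-coding genes, fell at 60 against 0 min from 33.3 to 29.1 CPM (log2 change -0.19), a call lost without replicate 1 at 0 min and without replicate 1 or 2 at 60 min. Zfp148 fell from 114 to 102 CPM (-0.16). Zfp91 rose from 234 to 258 CPM (0.14), a call lost in 5 of 16 other fits, with a gene overlapping on its own strand. Zfp281 (log2 change -0.075), Zfp384 (-0.01), Zfp335 (-0.09) and Zfp410 (0.06), an activator of the NuRD gene Chd4, did not pass the test.

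Of 10 members known for roles with RNA, ribosomes or SUMO, 2 rose and 2 fell at 60 against 0 min. Of all genes tested 13.3% rose and 11.7% fell, and nothing is read from counts in so short a list. The ribosome assembly factors Zfp593 and Zfp622 rose, Zfp593 from 12.1 to 15 CPM (log2 change 0.31) and Zfp622 from 49.9 to 55.6 CPM (0.155). The call of Zfp622 was lost in 6 of 16 other fits. The double-stranded RNA-binding gene Zfp346 fell from 38.4 to 31.5 CPM (-0.29), and Zfp638 from 167 to 154 CPM (-0.12), a call lost without replicate 2 at 0 min or replicate 2 at 60 min. Zfp106 (-0.03), Zfp207 (-0.03), Zfp326 (0.11), Zfp598 (0.03), the sensor of collided ribosomes, Zfp451 (0.08) and Zfp830 (-0.12) did not pass the test.

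Of 5 members of corepressor complexes, Zfp217 fell (log2 change -0.46) and Zfp516 rose (0.58) at 60 against 0 min. Zfp644 (0.09), Zfp592 (-0.05) and Zfp687 (-0.04) did not pass the test. Of all genes tested, to be set beside this list and the next, 11.7% fell and 13.3% rose. Of 5 KRAB members with known targets, Zfp961 fell from 17.9 to 11.6 CPM (-0.63). Zfp932, at 15.2 CPM at 0 min and 12.8 CPM at 60 min (-0.25, edgeR adjusted p 0.0413), shares 37.0% of its 50-base stretches and lost its call in 10 of 16 other fits. Zfp809, which silences retroviruses through their proline tRNA primer site, had a log2 change of 0.05; Zfp568, which represses a placental Igf2 transcript, had 0.01; and Zfp746, also called PARIS, had 0.09. These 3 did not pass the test. The better expressed KRAB members included Zfp871, which fell from 146 to 133 CPM (-0.13), Zfp445, an imprinting regulator at 99.3 CPM at 0 min and 94.3 CPM at 60 min that did not pass (-0.08), and Zfp655, which rose from 66.9 to 88.0 CPM (0.40). These 3 were named after their values were seen.

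The partners through which KRAB proteins act were taken from lists for Trim28, HUSH, H3K9 and DNA methylation and NuRD. Of these 41 genes 5 fell and 3 rose at 60 against 0 min, where 11.7% of all genes tested fell and 13.3% rose, so the share that fell was near that of all genes. They had a median log2 change of -0.02 and a range from -0.203 to 0.125. The difference from the KRAB members was not tested. Trim28 held 301 ± 5.5, 313 ± 4.75 and 309 ± 9.74 CPM (SD, n = 3) at 0, 30 and 60 min, and Setdb1 173 ± 1.15, 170 ± 1.99 and 163 ± 4.00 CPM. Neither passed the test at 60 min (edgeR adjusted p 0.446 and 0.0692). The genes that fell were Ehmt1, an H3K9 methyltransferase (-0.20), Mphosph8 of the HUSH complex (-0.17), Atf7ip, the partner of Setdb1 (-0.15), the heterochromatin protein gene Cbx1 (-0.14) and the NuRD helicase gene Chd3 (-0.10). Among those that rose were the histone-binding NuRD genes Rbbp4 (0.125) and Rbbp7 (0.101). Both lay near the threshold (edgeR adjusted p 0.0493 and 0.0498), and the Rbbp4 libraries at 0 and 60 min overlapped.

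Related zinc finger families were set beside the members. For comparison, 11.7% of all genes tested fell and 13.3% rose at 60 against 0 min, shares not matched for level to these sets. Of 35 tested Zbtb genes, whose fingers follow a BTB domain, 6 fell and 7 rose at 60 against 0 min (median log2 change -0.09). Of 15 tested Zscan and Zkscan genes, which carry a SCAN domain, 4 fell and 2 rose (median -0.11). Of the 121 Zfp-named genes under 3 CPM 51 could be tested, and 15 of these fell and 1 rose, with a median of -0.41. Just inside the cutoff lay Zfp993, Zfp11 and Zfp949, and just outside it Zfp937, Zfp85 and Zfp273 with means of 3.00, 2.93 and 2.86 CPM of plain totals. Zfp993 was at 2.2 to 3.65 CPM at 0 min and 1.93 to 3.84 CPM at 60 min, Zfp11 at 2.82 to 3.63 CPM and 2.78 to 3.68 CPM, and Zfp949 at 3.05 to 4.07 CPM and 2.00 to 3.23 CPM. Of those outside, Zfp273 was at 3.50 to 4.25 CPM at 0 min and 1.65 to 2.27 CPM at 60 min. Zfp85 was at 3.30 to 3.81 CPM and 2.07 to 2.72 CPM, and Zfp937 at 2.99 to 3.41 CPM and 2.28 to 2.81 CPM. Zfp273 and Zfp85 passed the test at 60 against 0 min, and Zfp937 did not.

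The authors' deposited table of their own DESeq2 comparison lists 82 of the 252 members lower and 13 higher at 60 min (adjusted p under 0.05), where 7.84% and 10.0% of the symbols with an adjusted p in the authors' deposited table were lower and higher. For 30 min the authors' deposited table lists 22 lower and 6 higher, where 2.28% and 3.80% of its symbols were.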

How the data were processed

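Total RNA of 9 libraries was measured, 3 at each of 0, 30 and 60 min of LPS, grouped by their titles. The authors deposited expected counts per gene made with RSEM, not normalized. The submitters' processing notes name RSEM 1.3.1 and STAR 2.7.0f with build mm10, besides cutadapt 1.18; annotation and strand setting were not given in those sources, so exons on opposite strands may not be told apart. Between 5.04% and 5.32% of a library's values were not whole; all were rounded. The authors' deposited DESeq2 tables hold log2 fold changes and p-values, per the file headers, and were used only as their own.

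One edgeR 4.0.16 quasi-likelihood fit (R 4.3.3) covered all 9 libraries, with TMM scaling, filterByExpr (14246 genes) and time as the only term; tests were two-sided with Benjamini-Hochberg adjustment over all genes. All 252 members passed the filter. A count of 10 was worth about 0.347 CPM. SEs were derived from the F statistic. The 3 CPM cutoff used all 9 libraries.

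Members, lists and rules were chosen with earlier results of these data known. Named genes were the 10 members of highest CPM per kb, the 10 largest called changes each way at 60 against 0 min, 6 at 60 against 30 min, 6 at 30 against 0 min, 3 on each side of the cutoff, and the role and partner lists. Of the role lists, Zfp462, Zfp57, Zfp708 and Zfp30 were not members. Only some partner genes are named, and 1 result among them is not reported here.

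Identifiers matched GENCODE M21 (55450 of 55450), from which lengths, positions, 3' untranslated regions and translations were taken; the plan named RefSeq proteins, which were not used here. A C2H2 pattern was C, 2 to 4 residues, C, 12 residues, H, 3 to 5 residues, H. The KRAB profile (HMMER 3.4, E-value under 0.001) was built from 142 windows of 36 residues of these proteins; it, the shared-sequence filter and the overlap filter were added after seeing the data. Promoters are RefSeq's. Scripts were tested on simulated data. Alternatives were total-count scaling, DESeq2 1.42.0, limma-voom (limma 3.58.1), no filter, a minimum count of 50, only the 2 times compared, a replicate block, each library left out, and cutoffs of 1 and 10 CPM. Same-numbered libraries showed no shared deviation: correlations of same-numbered deviations ran from -0.0637 to 0.00609 over 9 pairs. These values cannot say whether the cultures themselves were paired.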

Additional observations from a re-analysis of the deposited data

Results flagged for a closer look

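The change from 30 to 60 min is itself the test of a difference between the effects at both times, and 41 members were lower and 19 higher at 60 min than at 30 min (edgeR's quasi-likelihood test, adjusted p under 0.05). That is 16.3% lower, where 7.65% of all genes tested were, and 7.54% higher, which is below the 8.87% of all genes tested. Among the named members with lower values at 60 min the log2 differences between the effects were -0.95 for Zfp647, -0.63 for Zfp39, -0.61 for Zfp324, -0.57 for Zfp442, -0.54 for Zfp74 and -0.52 for Zfp120. Among those with higher values they were 1.03 for Zfp263, 0.56 for Zfp719, 0.42 for Zfp703, 0.40 for Zfp516, 0.38 for Zfp869 and 0.35 for Zfp959.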

How the results depend on the processing

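No count or median reversed under any alternative, and DESeq2 (94 lower, 16 higher) and limma-voom (105 and 21) stayed within 1.5 times of the counts at 60 against 0 min. Of all genes, DESeq2 called 1411 lower and 1663 higher in this comparison, and the replicate block 1514 and 1720. The main fit called 1671 and 1891. With 1 library left out, 1291 to 1640 of all genes were lower and 1454 to 1848 higher in this comparison. Total counts as the only scaling moved the median log2 change of the members to -0.127 at 30 against 0 min, -0.233 at 60 against 0 min and -0.105 at 60 against 30 min. Under this scaling the medians over all genes tested were -0.02, -0.068 and -0.041 in the same order. A member cutoff of 1 CPM moved the median of the members to -0.187 at 60 against 0 min and -0.078 at 60 against 30 min. A cutoff of 10 CPM, which leaves 162 members, gave medians of -0.067 at 30 against 0 min, -0.114 at 60 against 0 min and -0.027 at 60 against 30 min. With it 64 members were lower at 60 against 0 min and 27 at 60 against 30 min. Leaving out 1 library at a time gave 5 to 9 higher and 20 to 32 lower members at 30 against 0 min with a median of -0.108 to -0.086 (5 without replicate 1 at 30 min). It gave 13 to 24 higher and 82 to 104 lower at 60 against 0 min (median -0.177 to -0.152) and 11 to 20 higher and 31 to 44 lower at 60 against 30 min (median -0.079 to -0.055). With the replicate block the counts were 18 higher and 99 lower at 60 against 0 min, 16 and 40 at 60 against 30 min and 7 and 26 at 30 against 0 min, but 0 of 9 same-numbered pairs correlated over 0.1. Of 39 named calls at 60 against 0 min 31 kept their call in all 16 fits, of 29 at 60 against 30 min 18 did, and of 21 at 30 against 0 min 10 did. Zfp949, just inside the cutoff, lost its call at 60 against 0 min in 4 fits. The cause of these differences was not tested.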
